A study of Homo sapiens with 30 samples.

Results

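The BMP type I and type II receptor genes were followed in breast cancer cells given BMP7. They are 8 genes, chosen by name: the type I receptors BMPR1A, BMPR1B, ACVR1, ACVRL1 and ACVR1B, and the type II receptors BMPR2, ACVR2A and ACVR2B. Every array probe that the files name for one of them was taken, which gave 15 of 41000 probes, 9 for the type I and 6 for the type II genes. The samples were 5 established human breast cancer cell lines, HCC1954, MDA-MB-231, MDA-MB-361, T-47-D and ZR-75-30, each treated with recombinant human BMP7 or with vehicle for 30 min or for 1, 3, 6, 12 or 24 h. Each of the 30 two-colour arrays set vehicle-treated cells (Cy3) against BMP7-treated cells (Cy5) of the same line and time, with no dyes swapped, so that a constant dye effect of a probe cannot be told apart from a constant response. Each sample was a pool of 3 cultures and no array was repeated. The 6 time points of a line therefore give the spread in all tests, and p-values measure only that spread. MDA-MB-231 and T-47-D were grown in less serum than the other lines, which cannot be told apart from the line itself.

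BMPs are secreted dimers that bind a pair of type I and a pair of type II serine/threonine kinase receptors. The type II kinase phosphorylates the type I receptor, which then phosphorylates SMAD1, SMAD5 and SMAD9. These enter the nucleus with SMAD4 and turn on target genes such as ID1. BMPR1A, BMPR1B and ACVR1 are the type I receptors of this branch, ACVRL1 is an endothelial type I receptor, and ACVR1B is the activin type I receptor, which signals through SMAD2 and SMAD3. BMPR2 binds BMPs, while ACVR2A and ACVR2B serve both activins and BMPs, BMP7 among them.

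The probes are 60 bases long and are given by the files on hg18. BMPR1A was read at chr10:88673878-88673937, ACVR1 at chr2:158301680-158301739 on the minus strand, ACVR1B at chr12:50674874-50674933, ACVRL1 at chr12:50594562-50594621, BMPR2 at chr2:203132877-203132936, ACVR2A at chr2:148401393-148401452 and ACVR2B at chr3:38499784-38499843. The BMPR1B probe spans 3779 bases of the genome at chr4:96289061-96292839, so it crosses at least 1 intron. Where a gene had several probes, it was read from the one with the highest mean vehicle signal, and the others are given where they differ. A gene's level is the log2 vehicle signal of its probe after normalization between arrays, and levels of different probes are not compared. A spot is called well above background as the scanner software marked it.

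Promoters are shown because the vehicle levels of the members differed between lines to different degrees. The 250 bases before the first RefSeq start (GRCh38.p14) are shown for the 3 members with the largest differences, BMPR1B, ACVR2A and ACVR1, and for ACVR1B, a detected member whose lines did not differ past the test. Capitals mark GGCGCC, a GC-rich motif known to be bound by SMAD1 and SMAD5, which reads the same on both strands.
BMPR1B, chr4:94757705-94757954, plus strand: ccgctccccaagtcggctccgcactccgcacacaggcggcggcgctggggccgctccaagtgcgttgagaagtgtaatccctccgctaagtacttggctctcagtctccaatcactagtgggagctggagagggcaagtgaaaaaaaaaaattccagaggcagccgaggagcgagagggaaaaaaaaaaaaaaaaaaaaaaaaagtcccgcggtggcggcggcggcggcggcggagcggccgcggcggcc
ACVR2A, chr2:147844779-147845028, plus strand: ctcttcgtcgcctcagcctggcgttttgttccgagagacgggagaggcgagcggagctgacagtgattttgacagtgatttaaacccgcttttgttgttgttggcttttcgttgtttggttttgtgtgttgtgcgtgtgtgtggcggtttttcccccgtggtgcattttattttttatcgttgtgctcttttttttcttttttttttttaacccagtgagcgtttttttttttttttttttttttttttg
ACVR1, chr2:157876331-157876580, minus strand: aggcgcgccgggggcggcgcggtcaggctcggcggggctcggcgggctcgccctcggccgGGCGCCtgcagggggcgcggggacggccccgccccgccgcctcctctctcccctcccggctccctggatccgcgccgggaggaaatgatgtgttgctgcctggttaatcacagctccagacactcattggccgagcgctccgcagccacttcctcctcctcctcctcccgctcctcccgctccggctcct
ACVR1B, chr12:51951449-51951698, plus strand: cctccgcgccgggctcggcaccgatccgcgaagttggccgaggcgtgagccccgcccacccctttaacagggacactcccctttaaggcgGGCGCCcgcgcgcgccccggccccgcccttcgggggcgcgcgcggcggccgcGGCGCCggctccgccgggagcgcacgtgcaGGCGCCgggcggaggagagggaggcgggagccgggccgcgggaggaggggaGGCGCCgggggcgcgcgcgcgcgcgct
The ACVR1B window held GGCGCC at 4 places and the ACVR1 window at 1, while the BMPR1B and ACVR2A windows held none. Among the windows shown, base composition ran the same way, with 82.8% G and C in the ACVR1B window, 75.2% in ACVR1, 60% in BMPR1B and 40.8% in ACVR2A, against a median of 58% over all windows. Of the members not shown, ACVR2B had no GGCGCC at 74% G and C, BMPR2 had 1 at 79.2% and BMPR1A had none at 47.2%. Over the members, 7 of 8 had a window, ACVRL1 being the exception, and their starts gave 12 windows, of which 3 held GGCGCC (ACVR1, ACVR1B and BMPR2). The same motif was in 16.4% of 35116 windows of that length. The palindromic SMAD-binding element GTCTAGAC was in 0 of the 12 and in 0.182% of all windows. Which start each line uses was not measured, and a match of letters is not a bound site.

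Across the arrays, 53.2% to 69.6% of probes were well above background in vehicle. There were 13 slides and 2 scan batches, the second of which took in T-47-D at 3 h, HCC1954 at 30 min, and both the 30-min and the 6 h arrays of ZR-75-30 and of MDA-MB-231. ZR-75-30 at 6 h stood apart with 4044 probes changed at least 2-fold against a median of 543, and MDA-MB-231 at 6 h with 2741 spots marked as outliers against a median of 174. ESR1, the estrogen receptor, was well above background on 6 of 6 vehicle arrays of every line but MDA-MB-231, where it was so on 0 of 6. Its mean was lower in HCC1954 (6.06) than in ZR-75-30 (9.21), T-47-D (10.48) and MDA-MB-361 (11.04). The mesenchymal genes VIM (16.85), AXL and ZEB1 were highest in MDA-MB-231. VIM was next highest in HCC1954 (14.35), where ZEB1 was well above background on 0 of 6 arrays. ERBB2 was highest in HCC1954 (17.32), MDA-MB-361 and ZR-75-30. Of 6 markers of other cell types, the leukocyte gene PTPRC was well above background in 0 of 30 vehicle samples, CDH5 and PDGFRB in 5, PECAM1 in 9, CD68 in 21 and COL1A1 in 23, with CD68 highest in MDA-MB-231 (10.08), COL1A1 in MDA-MB-361 (8.91), and their part in the results was not tested.

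The first question was how far the lines differ in the receptors they express without BMP7. The BMP type I receptors ordered the lines differently: BMPR1A was highest in MDA-MB-361 and T-47-D, ACVR1 was lowest in those same lines, and BMPR1B was detected only in HCC1954 and ZR-75-30. ACVR2A spanned 8.28-fold between its highest and lowest line, whereas BMPR2 spanned 1.67-fold with its brightest probe and 2.57-fold with the other. After normexp and loess, ACVR2A spanned 3.25-fold. In T-47-D, its lowest line, 4 of 6 spots were well above background. By limma's F test over the 5 lines, 10 of the 15 receptor probes differed at an adjusted p under 0.05, beside 73.5% of all probes tested. Of the 150 pairs of lines over these probes, 59 differed (39.3%), beside 46.6% of all pairs. The median difference between the highest and the lowest line was 0.98 for the receptor probes and 1.44 for all probes on the log2 scale. Among probes well above background on at least 15 vehicle arrays, 9 of 11 receptor probes differed, beside 92.5% of all, with medians of 1.16 and 1.69. These are bulk samples, so fewer cells with a transcript and less of it per cell cannot be told apart.

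**Figure D1:**
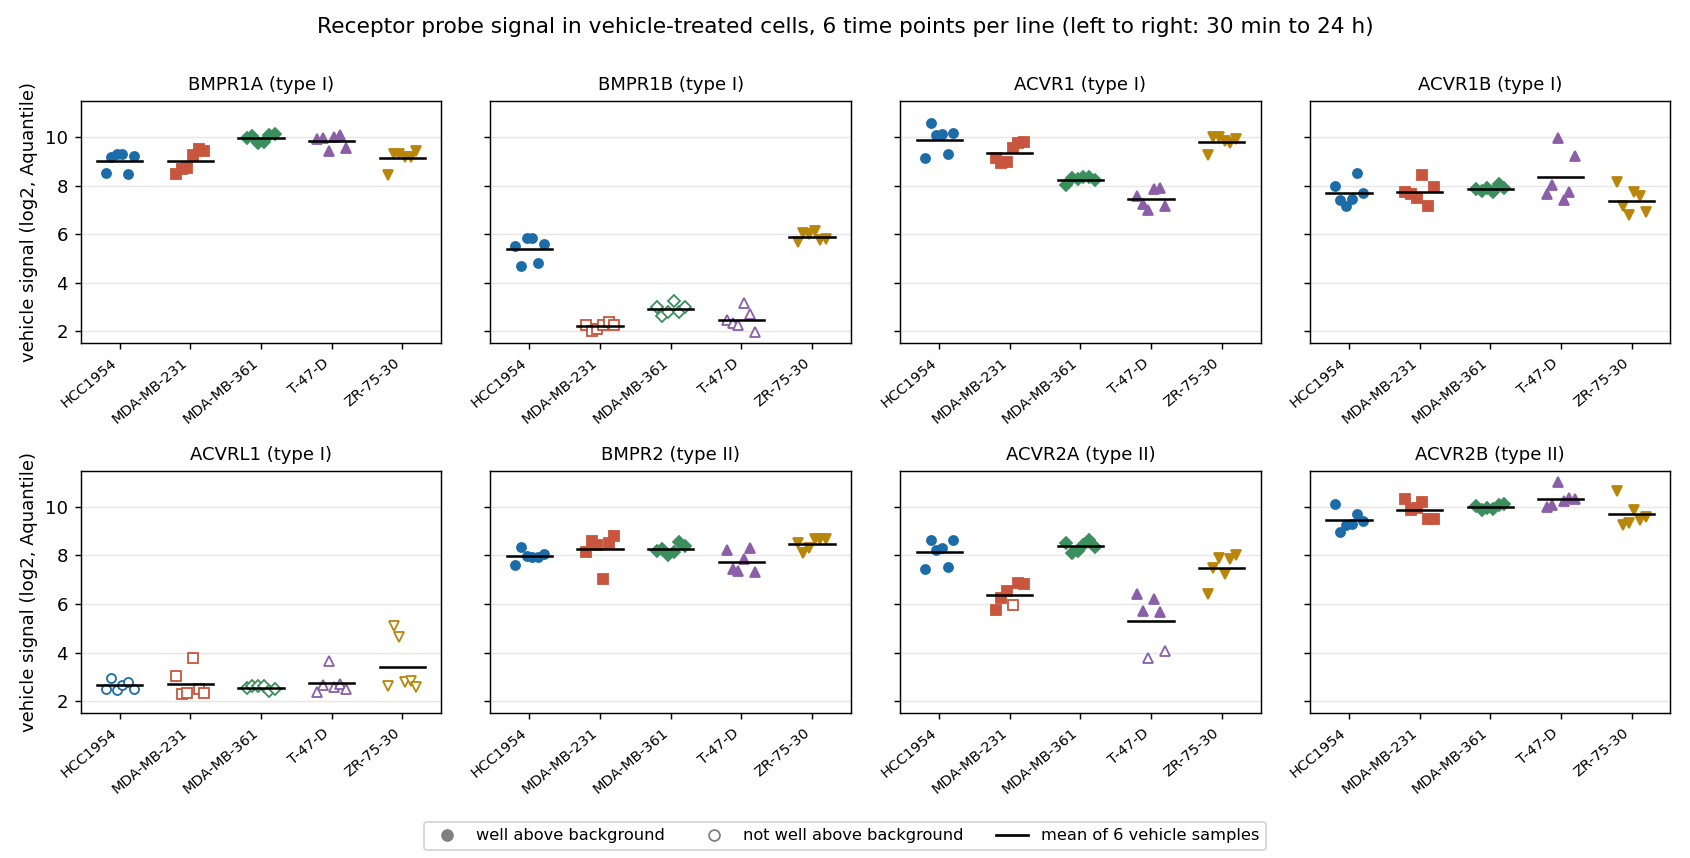
Log2 vehicle signal (vertical axis) of the main probe of each receptor gene in 5 cell lines, with 6 samples per line in order of time and a bar at their mean; open symbols mark spots not well above background. BMPR1B is filled in HCC1954 and ZR-75-30 alone, ACVRL1 is open in all 30 samples, and ACVR2A is lowest in T-47-D, where 2 of 6 samples are open.

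BMPR1B, a type I receptor with a high affinity for several BMPs, was the most restricted member. Its vehicle level ran from 5.69 to 6.12 in ZR-75-30 with a median of 5.90, and from 4.70 to 5.86 in HCC1954 with a median of 5.55, well above background on all 6 arrays of both. It was not well above background on any of the 6 arrays of MDA-MB-231, MDA-MB-361 and T-47-D, where the highest value was 3.26 in MDA-MB-361, 3.18 in T-47-D and 2.41 in MDA-MB-231. No sample of HCC1954 or ZR-75-30 overlapped those of the other lines.
Against the lowest signal that counts as well above background, ZR-75-30 was at least 2.97-fold higher than MDA-MB-231, with measured means of 5.90 and 2.22 and an adjusted p of 4.475e-16 by limma. It was at least 2.80-fold higher than MDA-MB-361 (mean 2.92, adjusted p = 5.973e-14) and at least 2.35-fold higher than T-47-D (mean 2.48, adjusted p = 2.602e-15). HCC1954, with a mean of 5.38, was at least 2.08-fold above MDA-MB-231, 1.95-fold above MDA-MB-361 and 1.64-fold above T-47-D. ZR-75-30 exceeded HCC1954 by 0.52 on the log2 scale (SE 0.19, adjusted p = 0.0252) although their ranges overlapped. After normexp with an offset of 50, ZR-75-30 was 2.04-fold above MDA-MB-231, less than the bound given above.

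ACVR1, which encodes the BMP type I receptor ALK2, was detected in all 30 vehicle samples and ordered the lines differently. Its level ran from 9.12 to 10.55 in HCC1954 (median 10.10), from 9.24 to 10.01 in ZR-75-30 (median 9.87) and from 8.94 to 9.77 in MDA-MB-231 (median 9.33). It ran from 8.03 to 8.35 in MDA-MB-361 (median 8.28) and from 7.002 to 7.91 in T-47-D (median 7.41). Every sample of the first 3 lines lay above every MDA-MB-361 sample, and every MDA-MB-361 sample above every T-47-D sample.
HCC1954 was 5.40-fold above T-47-D (2.43 on the log2 scale, SE 0.21, adjusted p = 7.557e-11), and ZR-75-30 was 5.03-fold above it. MDA-MB-361 was 1.73-fold above T-47-D (adjusted p = 0.00279). HCC1954 and ZR-75-30 differed by 0.10 (adjusted p = 0.749), and ZR-75-30 and MDA-MB-231 by 0.44 (adjusted p = 0.0964), so neither pair of neighbours passed the test, while MDA-MB-231 exceeded MDA-MB-361 by 1.1 (adjusted p = 7.699e-05).

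BMPR1A, the widely expressed type I receptor for BMP2 and BMP4, ran the other way. Its level ran from 9.77 to 10.13 in MDA-MB-361 (median 10.004) and from 9.43 to 10.08 in T-47-D (median 9.94). In ZR-75-30 it ran from 8.44 to 9.42 (median 9.23), in MDA-MB-231 from 8.48 to 9.49 (median 8.98) and in HCC1954 from 8.47 to 9.28 (median 9.20). All samples of MDA-MB-361 lay above all of the last 3 lines, and those of T-47-D lay above all of ZR-75-30 and HCC1954 and overlapped only MDA-MB-231 among the lower lines.
MDA-MB-361 was 1.97-fold above HCC1954 (0.98 on the log2 scale, SE 0.19, adjusted p = 0.0001005) and T-47-D 1.78-fold above it (adjusted p = 0.000690). The order broke once: T-47-D exceeded ZR-75-30 by 0.69 (adjusted p = 0.00399), and the other neighbours in the order differed by 0.15, 0.12 and 0.02, with adjusted p of 0.581 to 0.961. The other BMPR1A probes also put MDA-MB-361 highest, but put MDA-MB-231 lowest in place of HCC1954, by 1.56 and 1.16. Over the 30 vehicle samples, the 3 probes followed each other with r from 0.866 to 0.963.

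ACVR1B, the activin type I receptor, was well above background in all 30 vehicle samples, with line means from 7.38 in ZR-75-30 to 8.33 in T-47-D. Its F test did not pass (adjusted p = 0.116), and no neighbours in the order passed the pairwise test (adjusted p from 0.264 to 0.946), while the highest line exceeded the lowest by 0.95 (SE 0.33, adjusted p = 0.0173). T-47-D was the widest line, running from 7.41 to 9.94 with a median of 7.88. The 2 highest T-47-D values, 9.94 at 3 h and 9.23 at 24 h, came from the 2 arrays on which ACVR2A was not well above background in that line. With scan batch as a term the lines differed (adjusted p = 0.00862).
Another ACVR1B probe, for a different transcript, was well above background in 2 of 30 vehicle samples. ACVRL1, the type I receptor known from endothelial cells, was well above background in 0 of 30 vehicle and 0 of 30 BMP7 samples with either of its probes. HCC1954 gave no ACVRL1 signal over background although the endothelial marker PECAM1 was well above background there on 6 of 6 arrays, at a mean of 8.76.

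ACVR2A, a type II receptor for activins and BMPs, had the widest span of the type II genes. Its level ran from 8.10 to 8.65 in MDA-MB-361 (median 8.38), from 7.42 to 8.64 in HCC1954 (median 8.26) and from 6.39 to 8.02 in ZR-75-30 (median 7.67). In MDA-MB-231 it ran from 5.74 to 6.84 (median 6.40), and in T-47-D from 3.77 to 6.43 (median 5.70). All samples of MDA-MB-361 and HCC1954 lay above all of MDA-MB-231 and T-47-D, with ZR-75-30 reaching into both sets.
MDA-MB-361 was 8.28-fold above T-47-D (3.05 on the log2 scale, SE 0.36, adjusted p = 3.589e-08) and 4.004-fold above MDA-MB-231 (adjusted p = 3.328e-05). In T-47-D 4 of its 6 spots were well above background and in MDA-MB-231 5 of 6, so the lowest values are near the limit of the measurement. The T-47-D spots not well above background read 3.77 at 3 h and 4.08 at 24 h, beside 5.69 to 6.43 on its other arrays. MDA-MB-231 exceeded T-47-D by 1.05 (adjusted p = 0.0187) and ZR-75-30 exceeded MDA-MB-231 by 1.12 (adjusted p = 0.0122), both with overlapping ranges. Neighbours among the 3 highest lines did not pass (adjusted p = 0.642 and 0.160).

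BMPR2, the type II receptor dedicated to BMPs, was well above background in every line, and its brightest probe varied little between them. Its line means ran from 7.74 in T-47-D through 7.97, 8.25 and 8.27 in HCC1954, MDA-MB-231 and MDA-MB-361 to 8.48 in ZR-75-30. All ranges overlapped, with values from 7.30 to 8.28 in T-47-D and from 8.08 to 8.69 in ZR-75-30. The F test passed narrowly (adjusted p = 0.0304) and ZR-75-30 exceeded T-47-D by 0.74 (SE 0.22, adjusted p = 0.00629), but no neighbours passed (adjusted p from 0.333 to 0.959).
The F test no longer passed with the 75th percentile in place of Aquantile (adjusted p = 0.0697), with outlier-marked spots kept (0.0786), without the 1, 3, 12 or 24 h arrays (0.0517 to 0.181) or without ZR-75-30 at 6 h (0.0546). The other BMPR2 probe differed more clearly (adjusted p = 0.00113) and put MDA-MB-361 highest, at 8.04, and HCC1954 lowest, at 6.68.

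ACVR2B, the second activin type II receptor, gave different orders with its 3 probes. Its brightest probe, at chr3:38499784-38499843, was lowest in HCC1954 (8.97 to 10.10, median 9.33) and highest in T-47-D (9.997 to 11.03, median 10.27), a 1.85-fold difference in means (adjusted p = 0.000917), with overlapping ranges. No neighbours in its order passed (adjusted p from 0.207 to 0.726), and its F test (adjusted p = 0.00615) did not pass without the 3 h arrays (adjusted p = 0.0795).
The probe at chr3:38509311-38509370 also put HCC1954 lowest, from 6.62 to 7.08 with no overlap with any other line, and MDA-MB-361 highest, 2.86-fold above it (adjusted p = 6.295e-08). The probe at chr3:38496226-38496285 put MDA-MB-361 lowest, at a mean of 5.47, and did not pass the F test (adjusted p = 0.0503). Over the 30 vehicle samples the correlations between these probes were 0.29, 0.17 and -0.30, with line and array shared by the points.

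For the members detected in at least 15 vehicle samples, the 2 genes with the most similar vehicle pattern over the 30 samples were sought among 13261 probes detected in all 30. The highest Pearson correlations were with SHOC2 (0.918) and ZNF641 (0.891) for BMPR1A, and with WWOX (0.948) and SAE2 (0.947) for ACVR1. They were with FGD1 (0.927) and SPRR1A (0.915) for ACVR1B and with WDR32 (0.864) and EIF4EBP2 (0.858) for BMPR2. ACVR2A was most like SEPT2 (0.940) and NOL11 (0.937), and ACVR2B most like COMMD5 (0.881) and ALKBH7 (0.873). The 30 points come from 5 lines, so these values are a description.

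The next question was whether BMP7 itself altered receptor expression. No receptor probe passed either test of a response shared by the lines. Averaged over the 5 lines, 0 of 15 receptor probes had a mean log2 ratio different from 0, beside 0.00976% of all probes by limma, with 2 receptor probes at an unadjusted p under 0.05 beside 15.4% of all. For the later times against 30 min, 0 of 15 changed, beside 0.571% of all probes, with 5 receptor probes at an unadjusted p under 0.05 beside 16.8% of all. The target gene ID1 on the same arrays rose by 1.05 on the log2 scale from 30 min to 3 to 24 h (SE 0.24, adjusted p = 0.0490), ID2 by 1.14 (adjusted p = 0.0130) and ID3 by 0.92 (adjusted p = 0.0254). The other ID2 probe rose by 0.70 and did not pass (adjusted p = 0.0548). Without ZR-75-30 this limma test called 0 of all probes, and with scan batch as a term it called 11. In the limma test of the mean over the lines ID1, ID2 and ID3 did not pass either. Their means were 0.81 for ID1, 0.91 for ID2 and 0.63 for ID3 (adjusted p = 0.127, 0.0993 and 0.175).

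**Figure D2:**
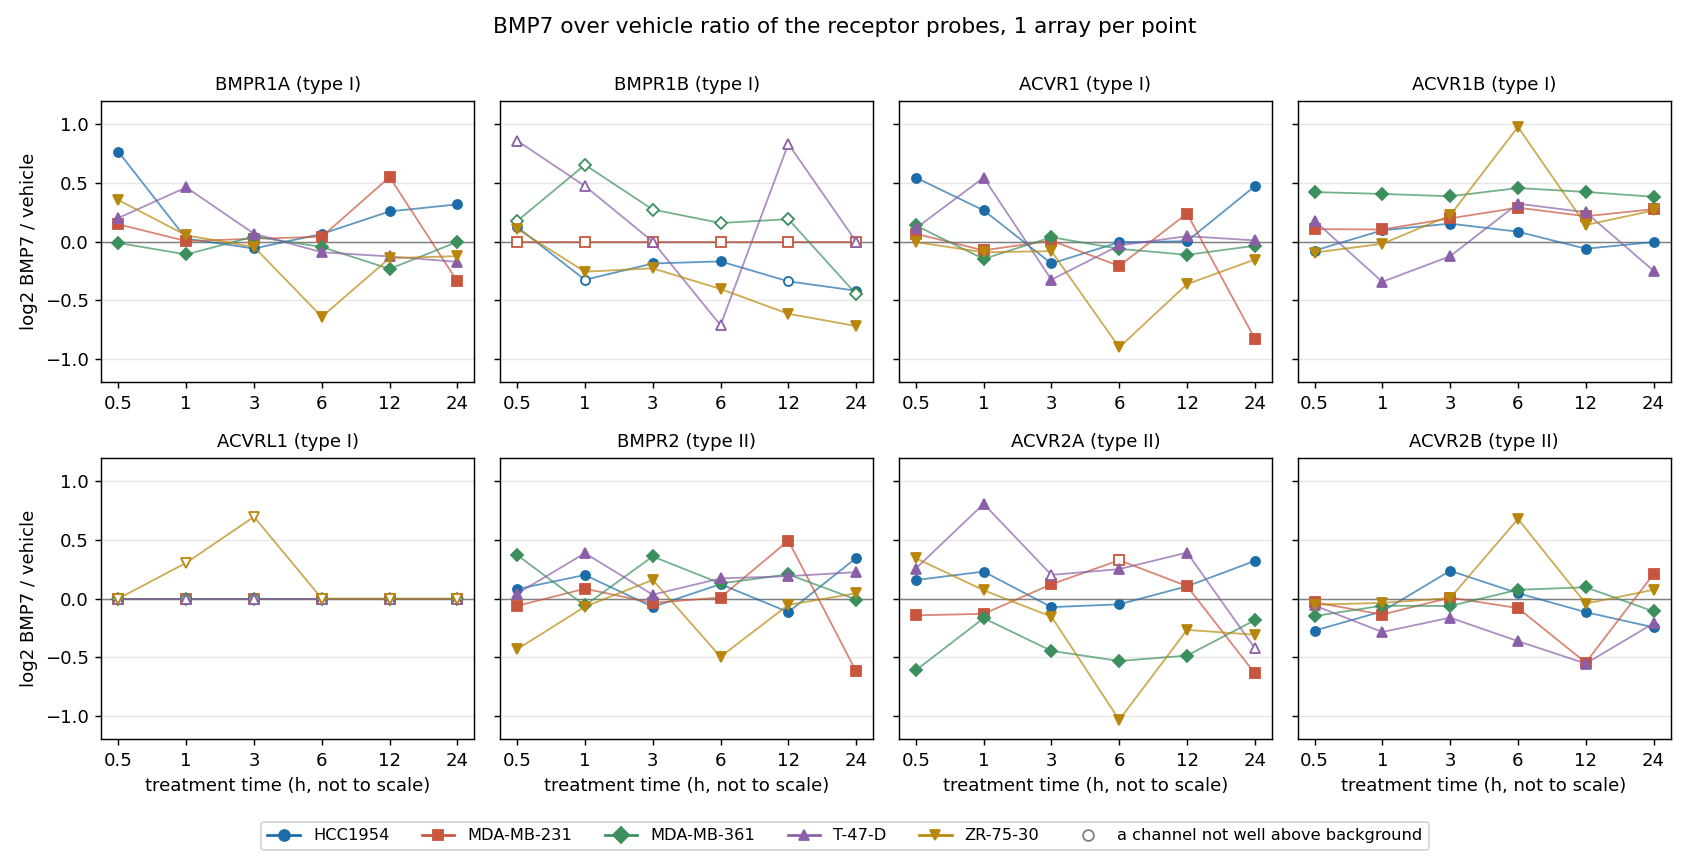
Log2 BMP7 over vehicle (vertical axis) against treatment time in h (categories, not to scale) for the main probe of each receptor gene, 1 array per point; open symbols mark a channel not well above background. The ZR-75-30 array at 6 h departs furthest in several panels.

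BMPR1A showed the lowest raw p of the type I genes in the later times. Its ratio at 3 to 24 h minus that at 30 min was -0.62 in HCC1954, -0.59 in ZR-75-30, -0.28 in T-47-D, -0.08 in MDA-MB-231 and -0.05 in MDA-MB-361, with an estimate of -0.32 (SE 0.11, adjusted p = 0.145). The difference was below 0 in 5 of 5 lines and did not pass. The other BMPR1A probes gave -0.31 and -0.32, but were above 0 in 2 lines and in 1 line.
ACVR1 was also below 0 in 5 of 5 lines, from -0.47 in HCC1954 to -0.18 in MDA-MB-361 (estimate -0.30, SE 0.13, adjusted p = 0.271). The 30-min arrays of ZR-75-30, HCC1954 and MDA-MB-231 were scanned in the second batch and their later arrays mostly in the first. Within the first batch, BMPR1A gave -0.05 in MDA-MB-361 and -0.33 in T-47-D, and ACVR1 gave -0.18 and -0.11. On the slide that held 30 min and 6 h of both MDA-MB-231 and ZR-75-30, BMPR1A at 6 h minus 30 min was -0.11 and -0.996, and ACVR1 -0.27 and -0.90. The share of scan batch in these values was not tested beyond a fit with batch as a term, which gave -0.33 for BMPR1A (adjusted p = 0.283) and -0.38 for ACVR1 (adjusted p = 0.273).

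BMPR1B could be followed only in ZR-75-30 and HCC1954. In ZR-75-30 its log2 ratio was 0.11, -0.26, -0.23, -0.40, -0.62 and -0.72 in order of time from 30 min to 24 h. In HCC1954 it was 0.12, -0.33, -0.19, -0.17, -0.34 and -0.42 at the same times, with the BMP7 channel not well above background at 1 and 12 h. Both lines were above 0 at 30 min and below 0 at each later time. Over all lines, the estimate for 3 to 24 h minus 30 min was -0.39 (SE 0.16, adjusted p = 0.216), which includes 3 lines at background. In MDA-MB-231 all 6 ratios were listed at 0, and in T-47-D 2 of 6, while the other ratios at background ran from -0.71 to 0.86. After normexp background correction the estimate was -0.11 (adjusted p = 0.313). Both 30-min arrays were in the second scan batch.

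The other members varied in sign between lines. The difference for ACVR1B ran from -0.13 in T-47-D to 0.50 in ZR-75-30 (estimate 0.12, adjusted p = 0.643), for BMPR2 from -0.20 to 0.35 (estimate 0.05, adjusted p = 0.909), for ACVR2A from -0.79 in ZR-75-30 to 0.20 in MDA-MB-361 (estimate -0.14, adjusted p = 0.772) and for ACVR2B from -0.26 to 0.25 (estimate 0.06, adjusted p = 0.900). The median over the 15 receptor probes was -0.14, beside 0 over all probes. None of these members had all lines on one side of 0.

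**Figure D3:**
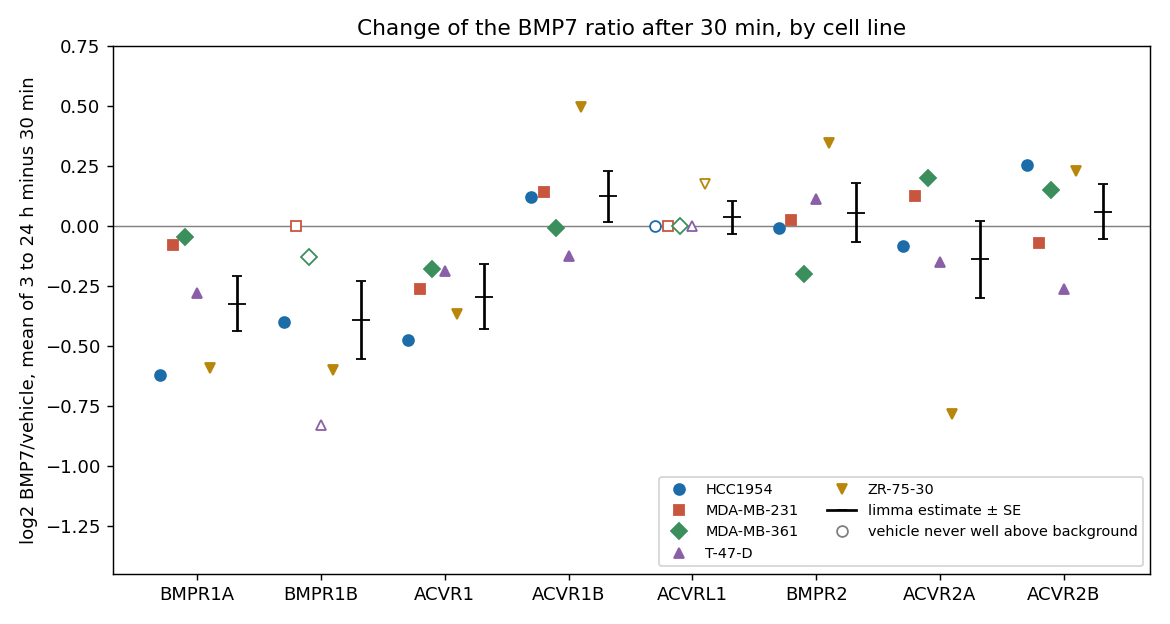
Log2 BMP7 over vehicle, mean of 3 to 24 h minus 30 min (vertical axis), for each receptor gene, with 1 symbol per cell line and the limma estimate with its SE to the right; open symbols mark lines in which vehicle was never well above background. BMPR1A and ACVR1 lie below 0 in all 5 lines, and no estimate passed the adjusted test.

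In the mean over the lines, the probe of ACVR2B at chr3:38509311-38509370 came closest to a call. Its mean ratio was 0.18 in HCC1954 and in ZR-75-30 and 0.13 in each of the other lines, above 0 on 27 of 30 arrays. The mean over lines was 0.15 (SE 0.02, adjusted p = 0.0868). Treating the 30 arrays as samples with line as a random block gave an adjusted p of 0.0003386, in a fit that called 2814 probes. The other ACVR2B probes gave means of -0.08 and 0.01. A ratio this even over lines and times cannot be told apart from a dye effect of the probe.
ACVR1B had a mean of 0.18 (SE 0.07, adjusted p = 0.309), above 0 in 5 of 5 lines. Its ratios in MDA-MB-361 lay between 0.38 and 0.46 on all 6 arrays, from 30 min on, and in MDA-MB-231 between 0.10 and 0.29.

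Differences between lines in the BMP7 ratio do not carry a constant dye effect. Of the 15 receptor probes, 1 differed between lines by limma's F test, beside 11.0% of all probes. It was the ACVR2B probe at chr3:38496226-38496285 (F test, adjusted p = 0.0166). Its mean ratio was 0.44 in MDA-MB-361 (0.07 to 0.90) and -0.33 in HCC1954 (-0.87 to 0.11), a difference of 0.77. It was above 0 on 6 of 6 MDA-MB-361 arrays and below 0 on 5 of 6 HCC1954 arrays, with overlapping ranges. Both extremes, 0.90 and -0.87, were at 30 min. The MDA-MB-361 vehicle spot there (4.53) was not well above background, and the HCC1954 vehicle level (6.58) stood apart from its other times. Without the 30-min arrays the call was kept. The call was lost without the arrays of 1 h (adjusted p = 0.0520), 12 h (0.0923) or 24 h (0.0719). The other ACVR2B probes did not pass (adjusted p = 0.182 and 0.908), so the call rests on 1 of 3 probes.

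**Figure D4:**
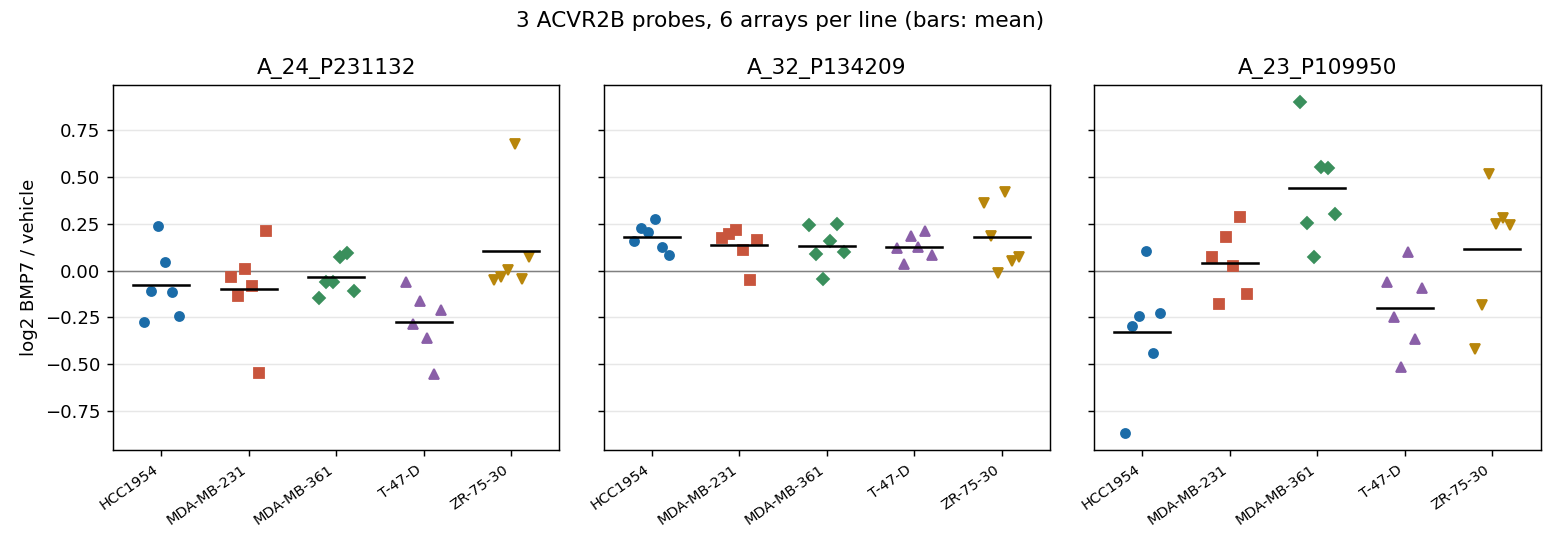
Log2 BMP7 over vehicle (vertical axis) for the 3 ACVR2B probes in 5 cell lines, 6 arrays per line with a bar at the mean. MDA-MB-361 is highest and HCC1954 lowest for the right-hand probe only.

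ACVR2A had the next largest difference. Its ratio in MDA-MB-361 was below 0 on 6 of 6 arrays, at -0.61, -0.17, -0.45, -0.53, -0.49 and -0.18 from 30 min to 24 h, while T-47-D was above 0 on 5 of 6. The means of these lines differed by 0.65, and the F test over all lines did not pass (adjusted p = 0.0785). The F test passed after normexp and loess (difference 0.46, adjusted p = 0.0143) and among probes detected in both channels on at least 15 arrays (adjusted p = 0.0456).
ACVR1B differed by 0.41 between MDA-MB-361 and T-47-D, and its F test over the lines did not pass (adjusted p = 0.0943). That F test passed without ZR-75-30 at 6 h (adjusted p = 0.0179) and in the first scan batch alone (adjusted p = 0.0422). ACVR2A below and ACVR1B above vehicle in MDA-MB-361 were both present at 30 min, and their ratios at 3 to 24 h minus 30 min were 0.20 and -0.01 there.

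By the 2-fold limit on a single array, 5 of 450 receptor values (1.11%) were events, beside 1.87% of all probe values. Of these, 3 were the ACVR1B probe at background, with values of -1.06, 1.06 and -1.28. The other 2 were ACVR2A (-1.03) and a BMPR2 probe (-1.0) in ZR-75-30 at 6 h, both well above background. None remained after normexp and loess, and 3 remained without that array.
On ZR-75-30 at 6 h, 8 of the 11 receptor probes detected in at least 15 vehicle samples had the ratio that was largest in size over all 30 arrays. The 11 ratios had a median size of 0.78 beside 0.37 for all probes there. The share of all detected probes with their largest ratio there was not counted. That array held 4044 probes changed at least 2-fold against a median of 543. BMPR1A (-0.64), ACVR1 (-0.90), BMPR2 (-0.50) and ACVR2A (-1.03) were lower with BMP7 on it, and ACVR1B (0.98) and ACVR2B (0.68) higher. At 3 and 12 h in the same line, ACVR1 was at -0.08 and -0.36 and ACVR1B at 0.22 and 0.14.

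Receptor levels were last set beside the size of each line's ID1 response. The ID1 response, its mean log2 ratio at 3 to 24 h, was 1.79 in MDA-MB-231 (SD 0.89, n = 4), 1.33 in MDA-MB-361 (SD 0.45), 1.14 in HCC1954 (SD 0.14), 0.62 in ZR-75-30 (SD 0.17) and 0.60 in T-47-D (SD 0.23). The vehicle level of ID1 was lowest in MDA-MB-231, at a mean of 12.34 beside 14.58 to 15.68 in the other lines. The part of this level in the size of the response was not tested. With 5 lines no correlation was computed. MDA-MB-231, the line with the largest ID1 response, was the highest line for 0 of 7 detected receptors by their brightest probes, although the ACVR2B probe at chr3:38496226-38496285 was highest there (6.32). The share of all detected probes that were highest in MDA-MB-231 was not counted, so 0 of 7 cannot be set against it. MDA-MB-231 had BMPR1B at background, as did MDA-MB-361 and T-47-D, and was next to lowest for ACVR2A. For BMPR1A it was next to lowest by the brightest probe and lowest by the others. ACVR1, at 9.35 there, and BMPR2, ACVR1B and ACVR2B lay in the middle of the order of the 5 lines.
T-47-D, with the smallest ID1 response, had the lowest ACVR1, ACVR2A and BMPR2 means by the brightest probes. It also had the highest ACVR1B and ACVR2B means by these probes, although the ACVR1B F test over the lines did not pass (adjusted p = 0.116). Its ACVR1B read 9.94 at 3 h and 9.23 at 24 h, while its median was 7.88 beside 7.86 in MDA-MB-361. ACVR1, ACVR2A and BMPR2 read lowest in T-47-D on the same arrays. At 3 h 55.5% of probes were well above background, and at 24 h 2092 changed at least 2-fold. The part of these arrays was not tested. ZR-75-30, whose response by the ID1 probe used here was similar to that of T-47-D, had the highest BMPR1B and BMPR2 and 5.03 times the ACVR1 level of T-47-D by the brightest probes. The other BMPR2 probe put HCC1954 lowest (6.68) and MDA-MB-361 highest (8.04), and the other ACVR2B probes did not put T-47-D highest. MDA-MB-361 and HCC1954, with intermediate ID1 responses, had the highest ACVR2A. Without MDA-MB-231 at 6 h, where BMPR2 read 7.03 against 8.14 to 8.80 on its other arrays, MDA-MB-231 became the highest line for BMPR2, and thus for 1 of 7. MDA-MB-231 and MDA-MB-361 stayed first and second in ID1 response with 24 h alone, after subtracting 30 min, with normexp and loess, with another probe assigned to ID1 and with ID3. The order of the other lines moved: ZR-75-30 and T-47-D changed places at the low end in some of these. With the other probe assigned to ID1, ZR-75-30 (1.02) came above HCC1954 (0.73), and T-47-D was at 0.59. With ID3, ZR-75-30 read 0.62 and T-47-D 0.27.

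**Figure D5:**
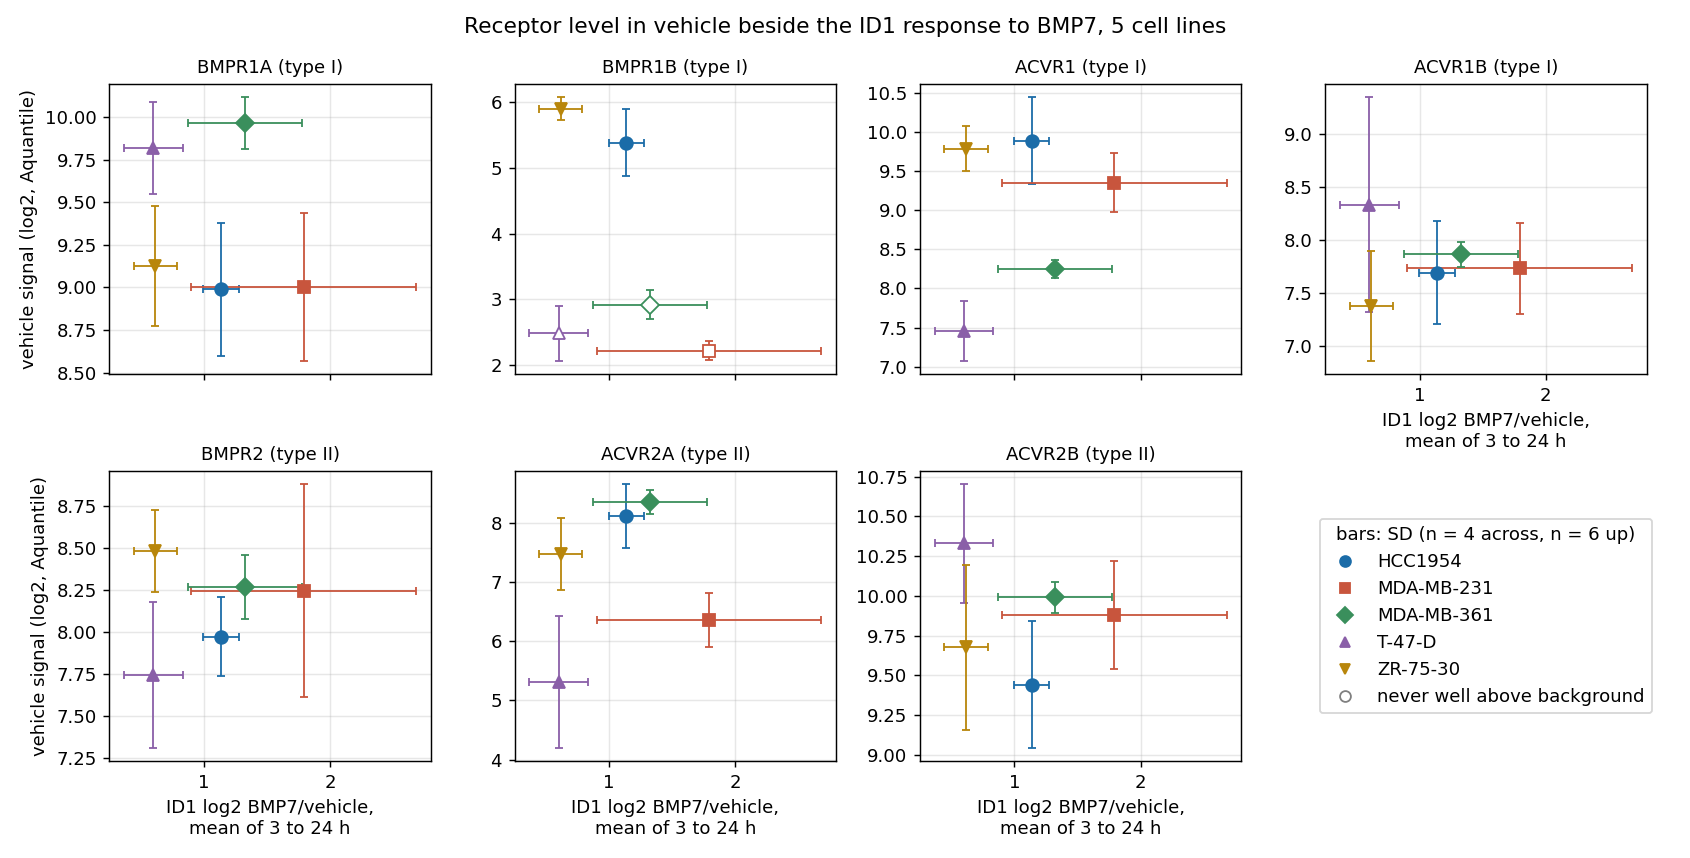
Mean log2 vehicle signal of 7 detected receptor genes (vertical axis, SD over 6 samples) against the mean log2 BMP7 over vehicle of ID1 at 3 to 24 h (horizontal axis, SD over 4 arrays), 1 symbol per cell line. MDA-MB-231, furthest right at 1.79, is not the highest line in any panel.

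The wider pathway was read from 34 listed genes, of which 31 were on the array. Vehicle levels differed between lines for 27 of the 31, beside 73.5% of all probes and 92.5% of those well above background on at least 15 vehicle arrays, among them 5 of 7 co-receptors and pseudoreceptors, 4 of 4 related receptors, 7 of 8 SMADs, 7 of 8 receptor regulators and 4 of 4 targets. From 30 min to 3 to 24 h 4 rose, namely ID1, ID2, ID3 and SMAD6, an inhibitory SMAD that rose by 0.57 (SE 0.12, adjusted p = 0.0426), and 0 fell, beside 0.571% of all probes that changed. Without ZR-75-30 none of these genes passed, as that fit called 0 of all probes. The BMP7 ratio differed between lines for 4 of 31 (RGMB, SMAD2, SMAD6 and ZFYVE16), a share close to the 11.0% of all probes.
The 8 with the largest line differences in vehicle were ID4, TGFBR2, ID2, NEO1, BAMBI, TGFBR3, SMURF2 and SMURF1. BAMBI, a pseudoreceptor that lacks a kinase and dampens BMP and TGF-beta signals, was 22.6-fold higher in MDA-MB-361 (16.75) than in MDA-MB-231 (12.25). NEO1, which binds the RGM co-receptors, was 53.9-fold higher in MDA-MB-361 than in MDA-MB-231 (11.03 and 5.28), and ID2 114.7-fold higher (13.07 and 6.23). SMURF1 and SMURF2, ubiquitin ligases of receptors and SMADs, were highest in MDA-MB-231, 11.1-fold and 14.2-fold above T-47-D. TGFBR2, the TGF-beta type II receptor, was at least 223-fold higher in MDA-MB-231 than in T-47-D (measured means 12.53 and 4.36), where it was not well above background. TGFBR3 was at least 4.21-fold higher in MDA-MB-231 (6.62) than in ZR-75-30 (2.33), and ID4 at least 195-fold higher in ZR-75-30 (11.94) than in MDA-MB-231 (2.68). Adjusted p for these 8 genes ran from 1.041e-25 to 1.002e-10 by limma's F test.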

How the data were processed

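Vehicle-treated and BMP7-treated cells of 5 lines were compared on 30 two-colour Agilent whole human genome arrays. Per the file headers, the scans were processed by Feature Extraction 9.5.1.1 with background correction, linear and lowess dye normalization and surrogates for signals at background, and probe coordinates are on hg18. The authors deposited, for each array, log10 ratios of BMP7 over vehicle and the processed intensity of both channels. They also deposited a matrix of log2 ratios with a median of 0 per array, whose further normalization is only called linear, and which served as an alternative. The software's own p-values and errors of the ratios were not used.

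Ratios were converted to log2, and control spots and those the software marked as outliers were dropped. Repeated spots of 1 probe were averaged, and array medians were set to 0. Vehicle levels were log2 of the processed Cy3 signal, normalized between arrays by Aquantile in limma 3.58.1 (R 4.3.3). Tests were fitted by limma on all 41000 probes at a Benjamini-Hochberg adjusted p under 0.05: vehicle level over lines (F, and 10 pairs adjusted together), the mean ratio over 5 line means, 3 to 24 h minus 30 min with line as a block, and the ratio over lines (F). A fold against a line in which a probe was never well above background was taken against the higher of that array's lowest well-above-background signal and the probe's own. The fits were checked on simulated data. The number of arrays limits the precision.

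The members and the pathway and marker lists were chosen with earlier results of these data known. All member probes were named, each gene was read from its brightest vehicle probe, up to 8 pathway genes were named by their difference between lines, and 2 genes of similar pattern were named per detected member. Motifs were searched in RefSeq windows of 250 bases. Alternatives were the 75th percentile scaling, normexp (offset 50) with loess, the deposited log2 matrix, detection filters, outlier spots kept, slide or line as a random block, scan batch or time as a term, and leaving out each line or time. Leaving out ZR-75-30 or MDA-MB-231 at 6 h and the first scan batch alone were added after the data had been seen. Figures were drawn with matplotlib 3.10.9.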

Additional observations from a re-analysis of the deposited data

Results flagged for a closer look

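Of 100 groups of 6 values (the vehicle level or BMP7 ratio of a member probe in a line), 9 held a value whose gap to its nearest neighbour was large for the range of the group. The rule flags about 1 in 20 groups of independent values, but these groups share arrays and some are probes of the same gene. The 9 can therefore not be set against that rate, and the share over all probes was not counted. In ZR-75-30 at 30 min, the vehicle levels of BMPR1A (8.44, and 7.77 with another probe) and ACVR1 (9.24) lay far below the other 5 samples of the line. In the same line at 6 h, the log2 ratios of ACVR1B (0.98) and ACVR2B (0.68) lay far above the other times. Both of these arrays were in the second scan batch, and the part of the batch in these values was not tested.

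In MDA-MB-231, a BMPR1A probe stood apart at 12 h with a log2 ratio of 0.54 and a BMPR2 probe at 24 h with -0.68. The vehicle level of ACVR2B stood apart in T-47-D at 3 h, at 11.03, and that of another ACVR2B probe in HCC1954 at 30 min, at 6.58, both arrays of the second scan batch. The BMP7 ratio of that other ACVR2B probe also differed between lines by limma's F test (adjusted p = 0.0166). Its mean in MDA-MB-361 exceeded that in HCC1954 by 0.77 on the log2 scale.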

How the results depend on the processing

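With arrays in place of replicates, each result was recomputed under the alternatives. The labels carry no replicate numbers, so line, time point, slide and scan batch served as blocks or terms. The number of receptor probes differing in vehicle level stayed between 9 and 12. The number with a BMP7 ratio differing between lines, 1, became 3 with normexp, 2 among detected probes, without ZR-75-30 at 6 h or in the first scan batch alone, and 0 to 3 on leaving out 1 line or time. Receptor probes with a mean ratio other than 0 numbered 1 in place of 0 with line as a random block. Receptor events at 2-fold, 5, became 0 with normexp, 2 with both channels detected, 38 at 1.5-fold and 3 without ZR-75-30 at 6 h, and MDA-MB-231 was highest for 1 receptor in place of 0 without its 6 h array. Over all probes, those with a mean ratio other than 0, 4, became 130 with normexp, 254 in the deposited matrix, 184 among detected probes, 7 with outlier spots kept, 2814 with line as a random block, 46 without ZR-75-30 at 6 h, 10 without MDA-MB-231 at 6 h and 0 to 0 on leaving out a line. Those changed between 30 min and 3 to 24 h, 234, became 60 with normexp, 39 in the matrix, 663 among detected probes, 11 with scan batch as a term, 1002 with 1 h counted as early, 797 without ZR-75-30 at 6 h, 8 in the first batch and 0 to 267 on leaving out a line. Those differing between lines in ratio, 4517, became 2627 with slide as a random block and 528 to 6255 on leaving out a line or time. The cause of these shifts was not tested. Of 899 single receptor values under the alternatives, 30 changed sign, none of them called in either setting, and 1 of these was in vehicle level (ACVRL1, 0.14 and -0.20 with the 75th percentile). Of the same values, 8 gained and 8 lost a call in vehicle level, and 9 gained and 3 lost one in the ratio between lines. Signals near background limit BMPR1B, ACVRL1, ACVR2A in T-47-D and 1 ACVR1B probe.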
